A study of Mus musculus with 16 samples.

Results

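Regulators of long-term self-renewal were followed in mouse haematopoietic stem cells (HSCs). They were Mecom, Hlf, Mllt3, Runx1t1, Prdm16, Meis1, Sult1a1, Gfi1 and Bmi1, which makes 9 of the 46078 genes in the count table. All 9 were found in the table by matching gene identifiers to symbols of the GENCODE M21 annotation. The genes were chosen from what is known of HSC self-renewal with their counts over the 4 groups already in view, so their levels and differences are given as a description and carry no p-value.

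HSCs were taken from the long bones of untreated C57/Bl6 mice and sorted by the surface phenotype Lin- Sca1+ cKit+ (LSK) CD48- CD150+, with 30 cells to a pool and 1 library to each pool. The bone fraction is called endosteal bone marrow (BM) here and the flushed marrow fraction central BM. The mice were WT or homozygous for a constitutive deletion of Gfra2. Gfra2 encodes a neurturin receptor that cholinergic neurons need, and these mice serve as a model of a marrow with fewer cholinergic nerve fibres. The groups were WT endosteal (4 libraries), WT central (4), Gfra2-/- endosteal (4) and Gfra2-/- central (3). Ages were not given in the labels, and the labels do not say whether the pools of one group came from different mice. The study calls them biological replicates. Libraries are lettered A to D within a group in the order of the table, and equal letters do not pair them.

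Depth differed between the groups. Reads on genes ranged from 4416648 to 14003634 in WT endosteal libraries, from 826487 to 3367289 in WT central, from 8519094 to 18550008 in Gfra2-/- endosteal and from 7649803 to 14716308 in Gfra2-/- central. Every WT central library was therefore shallower than every library of the other groups, and in comparisons with that group genotype or compartment and depth cannot be told apart. Libraries also fell into those with more spike-in RNA and 4 with under 0.5% spike-in reads, 1 in each group (WT endosteal D, WT central D, Gfra2-/- endosteal D and Gfra2-/- central C). Levels are CPM, read counts divided by a library size that was scaled by the trimmed mean of M-values (TMM), unless stated.

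The targeted gene was read first. Gfra2 had 0, 0, 0 and 1 counts in WT endosteal libraries A to D and 0, 0, 4 and 0 in WT central, so almost no Gfra2 RNA was read in WT HSCs and a low count does not check the deletion. In the libraries labelled Gfra2-/- it had 2, 47, 1 and 9 counts in endosteal A to D and 0, 1 and 0 in central A to C. Scaled to depth, Gfra2 was at 2.37 CPM in Gfra2-/- endosteal B, 0.789 CPM in D and at most 0.135 CPM in the other libraries with that label, against 5.36 CPM in WT central C and at most 0.0818 CPM in the other WT libraries. Counts per gene do not show whether these reads came from the deleted part of the gene, so whether they go against the label was not tested. The contrasts that use Gfra2-/- endosteal B and D are therefore also given without them.

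The sorted cells carried HSC markers in every library. The 8 HSC markers summed to between 1388 CPM (WT central C) and 2815 CPM (Gfra2-/- central B). Kit, the stem cell factor receptor, was at 491 to 993 CPM and Procr at 52.3 to 229 CPM. Of the markers of multipotent progenitors, Cd34 was the most abundant at 210 to 714 CPM, while Cd48, the antigen that the sort excluded, was at 0 to 17.4 CPM. Flt3, the third progenitor marker, was at 59.8, 33.8, 79.0 and 2.54 CPM in Gfra2-/- endosteal libraries A to D and at 8.39, 19.9 and 58.0 CPM in Gfra2-/- central, against 0 to 23.9 CPM in WT libraries. It thus moved with the genotype in most libraries, and its part in the values below was not tested.

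**Figure D1:**
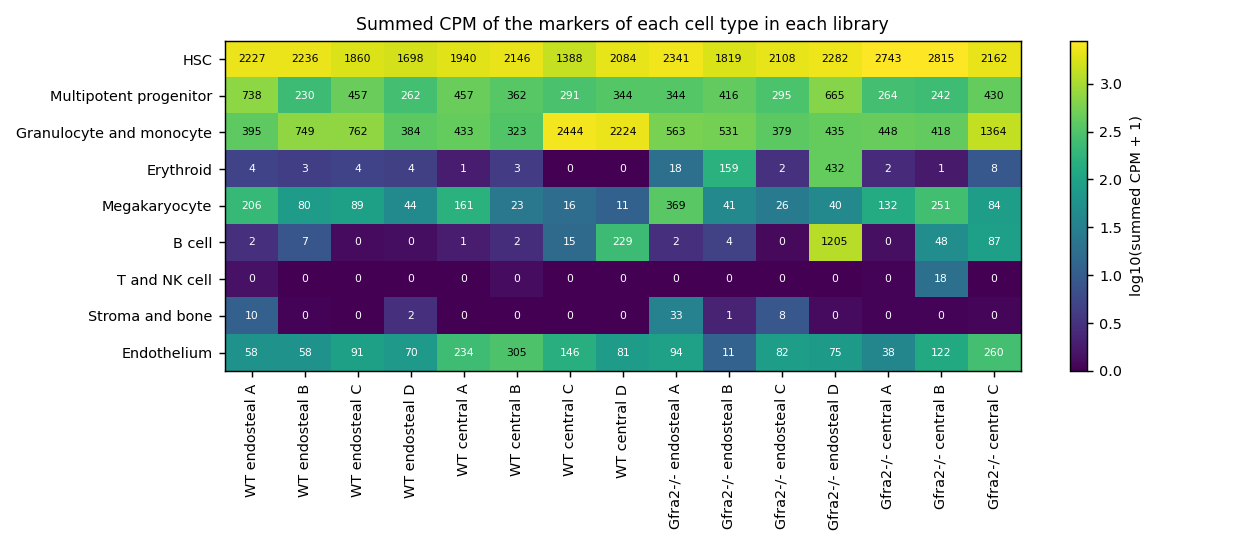
Summed CPM of 9 fixed marker lists (rows) in each of the 15 libraries (columns), with the colour on a log10 scale and the sum printed in each cell. The HSC row is bright throughout, from 1388 to 2815 CPM, whereas the B cell row is brightest in Gfra2-/- endosteal D (1205 CPM) and WT central D (229 CPM).

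Some libraries held markers of other cells. The 4 B cell markers summed to 1205 CPM in Gfra2-/- endosteal D and 229 CPM in WT central D, and Pax5 among them was at 18.6 and 129 CPM in these libraries. They summed to 87.3 CPM in Gfra2-/- central C and 47.6 CPM in Gfra2-/- central B, and to no more than 14.7 CPM in any other library. S100a8 and S100a9, made by neutrophils, were at 864 and 796 CPM in WT central D and at no more than 10.1 CPM in any other library, although Elane and Ctsg were each at 0 in 14 of 15 libraries. Ms4a3 was at 0 in all libraries except WT central A, where it was at 30.8 CPM. Lyz2, the most abundant of the granulocyte and monocyte list, was present in all libraries and highest in WT central C (2438 CPM) and Gfra2-/- central C (1354 CPM). Erythroid markers summed to 432 CPM in Gfra2-/- endosteal D, led by Hbb-bs at 329 CPM, and to 159 CPM in Gfra2-/- endosteal B, led by Car1 at 118 CPM. Among megakaryocyte markers Pf4 was the most abundant, up to 291 CPM in Gfra2-/- endosteal A. T and NK cell, stromal and endothelial lists were led by Cd3d (up to 13.2 CPM), Col1a1 (up to 18.5 CPM) and Emcn (11.3 to 301 CPM, a gene HSCs also express). Kdr, of the endothelial list, was at 0 in all 4 Gfra2-/- endosteal libraries and at 3.48, 63.9 and 33.3 CPM in Gfra2-/- central, and at 0 to 6.30 CPM in WT endosteal and 3.73 to 128 CPM in WT central libraries, so among libraries labelled Gfra2-/- it was higher in central BM, as Mllt3 was. The endothelial list as a whole overlapped, at 11.3 to 93.8 CPM in Gfra2-/- endosteal and 37.6 to 260 CPM in Gfra2-/- central libraries. Klf1, of the erythroid list, was at 8.79, 28.4, 1.27 and 2.45 CPM in Gfra2-/- endosteal and at 0.197, 0 and 0 CPM in Gfra2-/- central libraries, and the stromal list summed to 0.263 to 32.8 CPM against 0.0656 to 0.128 CPM, so both were higher in all endosteal libraries. The erythroid list as a whole overlapped there, with 2.08 CPM in Gfra2-/- endosteal C and 7.83 CPM in Gfra2-/- central C. In WT the erythroid list summed to at least 3.33 CPM in each endosteal and at most 3.11 CPM in each central library. These values lie near the floor, with 6 counts for Hbb-bs, the most abundant of the list in WT central B, so nothing is read from that gap. Klf1 alone was at 0 in WT endosteal A and D. Between central genotypes the HSC list summed to 2162 to 2815 CPM in Gfra2-/- and 1388 to 2146 CPM in WT libraries, and Pf4 was at 24.8 to 205 against 0.674 to 10.9 CPM. The megakaryocyte list as a whole overlapped, at 83.9 to 251 CPM in Gfra2-/- and 10.8 to 161 CPM in WT central libraries. Ppbp of that list went the other way, at 147 CPM in WT central A and at most 3.03 CPM in Gfra2-/- central. The part of these markers in those differences was not tested. Ncr1 and Cdh5 were at 0 in every library, and Lepr in 14 of 15. The part of these other cells in the values below was not tested beyond refitting without WT central D and Gfra2-/- endosteal B and D. In pools, fewer cells of a type and less RNA per cell cannot be told apart.

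Long-term HSCs keep their number by dividing rarely and by holding a transcriptional programme that blocks differentiation. Mecom and Prdm16 are related zinc finger proteins with a PR domain that maintain quiescent HSCs. Hlf is a PAR bZIP factor whose expression marks immature HSCs, and Meis1 is a TALE homeodomain protein that binds DNA beside HOX proteins. Mllt3 (AF9) reads acylated histone H3 through its YEATS domain and brings in the methyltransferase DOT1L and the super elongation complex, which release paused RNA polymerase. Runx1t1 (ETO) and Gfi1 act as repressors through corepressor complexes, and Gfi1 restrains HSC division. Bmi1 is a subunit of Polycomb repressive complex 1, which silences the Cdkn2a locus. Sult1a1 is the exception among the 9, a cytosolic enzyme that transfers sulfate to phenols.

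On the GRCm38 genome the genes lie as follows. Mecom (ENSMUSG00000027684) is on the reverse strand of chr3:29951296-30548008, and Hlf (ENSMUSG00000003949) on the reverse strand of chr11:90336536-90390895. Chromosome 4 holds 3 of them, namely Mllt3 (ENSMUSG00000028496, chr4:87769925-88033364, reverse strand), Runx1t1 (ENSMUSG00000006586, chr4:13743436-13893649, forward strand) and Prdm16 (ENSMUSG00000039410, chr4:154316125-154636873, reverse strand). Meis1 (ENSMUSG00000020160) is on the reverse strand of chr11:18879817-19018985 and Sult1a1 (ENSMUSG00000030711) on that of chr7:126672865-126676432. Gfi1 (ENSMUSG00000029275) is on the reverse strand of chr5:107716657-107726036 and Bmi1 (ENSMUSG00000026739) on the forward strand of chr2:18677018-18686629. All are protein coding. The library kit keeps no strand, so reads from overlapping genes cannot be assigned. Such overlap covered 18.3% of the exon bases of Meis1 (Gm16140 and Gm37818), at most 4.05% in Mecom, Prdm16, Sult1a1 and Gfi1, and none in Hlf, Mllt3, Runx1t1 and Bmi1. Gene-level counts also cannot separate the long Mecom transcript that includes the PR domain from the shorter one.

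Start-site sequence was available from RefSeq (GRCm38.p6) for 8 of the 9 genes, in 11 windows of 300 bases that run from 250 bases before to 50 after a start. It is shown for the gene the results turn on and for the related pair. The 250 bases upstream of the first Mllt3 start (chr4:88033408-88033657, reverse strand) are printed with the letters CAGCTG, an E-box, in capitals.

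Mllt3: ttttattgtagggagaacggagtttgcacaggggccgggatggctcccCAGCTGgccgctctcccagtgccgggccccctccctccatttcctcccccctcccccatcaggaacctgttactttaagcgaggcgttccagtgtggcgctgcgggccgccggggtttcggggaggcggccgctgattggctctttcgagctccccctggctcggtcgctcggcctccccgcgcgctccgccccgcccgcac

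The whole Mllt3 window was 70.3% G and C, the highest of the 11 member windows (44.7% to 70.3%), against a median of 52.7% over all 32851 windows in the table. The E-box letters were in 16.3% of all windows and in 1 of the 11 member windows, this one, at positions -202 to -197 from the start. Of 6 other letter strings searched on both strands, none overlapped the E-box in this window. The string AGATAA of the GATA factors was found in 0 of 11 member windows and 11.2% of all windows. The GFI1 string AAATCAC was found in 0 of 11 and 3.20%. TGTGGT (RUNX factors) was in the Meis1 window and in 16.8% of all. CCGGAA (ETS factors) was in 3 member windows, those of Meis1 and Hlf and one of Gfi1, and in 14.9% of all. TGACAG (MEIS factors) was in the second window of Mecom and of Mllt3 and in 19.2% of all. TTACNTAA (PAR bZIP factors) was in the Sult1a1 window and in 2.32% of all. A match is only a match of letters.

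The longest run that any 2 genes of the set shared in these windows was 24 bases, in Mecom and Prdm16, just after each start. No other gene in the table held it. In Mecom it spans positions 27 to 50 after the start (chr3:30509710-30509733, reverse strand) and in Prdm16 positions 10 to 33 (chr4:154636841-154636864, reverse strand). The capitals mark the shared run.

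Mecom: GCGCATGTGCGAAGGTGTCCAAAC
Prdm16: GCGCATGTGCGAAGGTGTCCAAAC

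The regulators spanned a wide range of expression. Per kilobase of exon, and averaged over the 15 libraries, the level was highest for Hlf at 66.4 ± 17.7 CPM per kb (SD, n = 15). Sult1a1 followed at 60.3 ± 49.9, Meis1 at 53.4 ± 10.5, Mllt3 at 23.9 ± 10.4 and Mecom at 15.05 ± 7.55 CPM per kb. Bmi1 was at 10.3 ± 6.73, Prdm16 at 8.59 ± 5.03, Gfi1 at 4.70 ± 7.11 and Runx1t1 at 1.69 ± 1.64 CPM per kb. In this order Meis1 and Mllt3 were the only neighbours further apart than the larger of their SDs. The order of the Hlf and Sult1a1 means differed by compartment, but not in every library. In central BM Sult1a1 was higher on average, at 81.2 ± 73.9 against 59.2 ± 14.8 CPM per kb (SD) in WT and 101 ± 16.0 against 83.5 ± 7.41 in Gfra2-/- libraries. In endosteal BM Hlf was higher on average, at 67.3 ± 24.7 against 39.7 ± 36.7 in WT and 59.9 ± 13.1 against 29.7 ± 24.8 in Gfra2-/- libraries. Against this order, Hlf was the higher in WT central C and D and Gfra2-/- central A. Sult1a1 was the higher in WT endosteal C and Gfra2-/- endosteal D. No gene of the set was at 0 in any library, and 7 of 9 had at least 10 counts in every library. Gfi1 and Runx1t1 had under 10 counts in 2 libraries each.

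Steadiness differed as much as level. Meis1 had the smallest spread within groups, with a pooled coefficient of variation of 22.3%, followed by Mllt3 and Hlf (26.1% each). Mecom (42.9%), Prdm16 (51.0%), Bmi1 (61.6%), Runx1t1 (71.6%), Sult1a1 (80.9%) and Gfi1 (99.5%) varied more. Across all libraries Gfi1 spanned a 152-fold range and Hlf a 2.14-fold range. Of 27 pairs of groups that were neighbours in the order of a gene's means, 3 were further apart than the larger of their SDs, 2 of them for Mllt3 and 1 for Runx1t1, and the ranges of only 1 pair did not meet, for Mllt3. That pair was Gfra2-/- central and WT central BM, between which 7.99% of all genes were higher in all Gfra2-/- libraries. The share of all genes over such neighbouring pairs was not computed, so nothing is read from these counts.

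**Figure D2:**
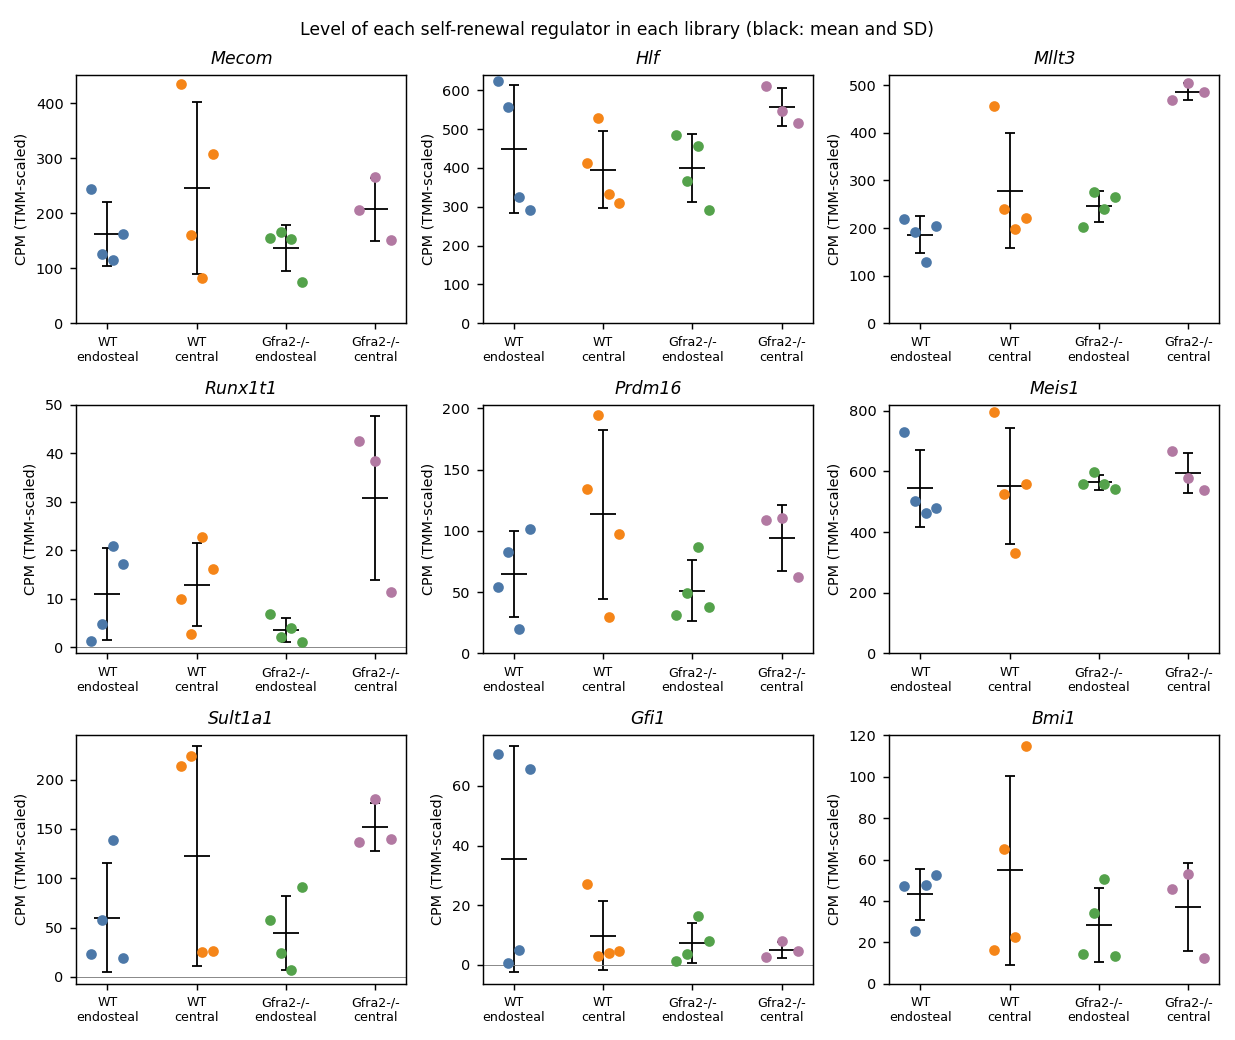
TMM-scaled CPM (vertical axes, linear from 0) of the 9 genes in each of the 15 libraries, by group, with the group mean and SD in black. Mllt3 sits at 469 to 503 CPM in the 3 central Gfra2-/- libraries, above the other 12 libraries, while Meis1 is level over the groups and Gfi1 is high in 2 WT endosteal libraries.

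Mllt3 had the clearest pattern over the groups. In WT endosteal libraries A to D it was at 219, 192, 130 and 204 CPM, and in WT central at 457, 240, 197 and 220 CPM. In the libraries labelled Gfra2-/- it was at 202, 276, 240 and 264 CPM in endosteal and at 469, 503 and 486 CPM in central BM. All 3 central Gfra2-/- libraries lay above all 12 others, of which WT central A, one of 2 libraries with under 1500000 reads on genes, came nearest and the next highest was at 276 CPM. Among the 15416 genes tested over the 4 groups, 41 (0.266%) had such a pattern, and Mllt3 was the 1 gene of the set among them. Since the set was chosen with these counts in view, nothing is read from that share. After counts were thinned to the smallest library the separation remained, but narrowly, with 469 to 534 CPM against 466 CPM in WT central A.

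Runx1t1, at low level, was also highest on average in Gfra2-/- central BM, but its lowest mean was in Gfra2-/- endosteal BM. Its correlation with Mllt3 over the 15 libraries was 0.05, and -0.53 with group means removed, while in thinned counts it was 0.44. Runx1t1 was at 6.76, 2.12, 4.05 and 1.14 CPM in Gfra2-/- endosteal libraries and at 42.6, 38.4 and 11.4 CPM in Gfra2-/- central. WT endosteal libraries had 1.22, 4.73, 20.8 and 17.2 CPM and WT central 9.96, 2.80, 22.8 and 16.2 CPM. The Gfra2-/- compartments thus did not overlap, whereas the WT compartments overlapped over most of their range.

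Sult1a1 was at 57.3, 24.1, 6.48 and 91.2 CPM in Gfra2-/- endosteal and at 137, 180 and 140 CPM in Gfra2-/- central libraries. In WT central BM it split into 214 and 224 CPM in libraries A and B against 25.5 and 26.3 CPM in C and D, and WT endosteal BM had 23.6, 57.4, 139 and 19.6 CPM. The ranges of the WT groups overlapped between 25.5 and 139 CPM. Hlf was at 485, 368, 456 and 292 CPM in Gfra2-/- endosteal and 612, 546 and 515 CPM in Gfra2-/- central libraries, again without overlap, and at 624, 557, 326 and 292 CPM in WT endosteal against 412, 529, 333 and 310 CPM in WT central.

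Mecom, which maintains long-term HSCs, was at 243, 126, 115 and 163 CPM in WT endosteal libraries and 435, 161, 83.1 and 309 CPM in WT central. It was at 155, 166, 153 and 75.3 CPM in Gfra2-/- endosteal and 205, 265 and 151 CPM in Gfra2-/- central. Its groups overlapped in all 4 comparisons, although in thinned counts the Gfra2-/- compartments did not. Prdm16, its relative, was at 54.3, 82.6, 20.4 and 101 CPM in WT endosteal and 134, 194, 29.5 and 97.4 CPM in WT central libraries. In the libraries labelled Gfra2-/- it was at 31.3, 49.2, 86.6 and 37.9 CPM in endosteal and 109, 111 and 62.8 CPM in central BM, so the group means of both genes were higher in central BM with overlapping libraries.

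Meis1 was nearly level, with group means of 544 ± 126 CPM (SD, n = 4) in WT endosteal, 553 ± 191 (n = 4) in WT central, 564 ± 23.7 (n = 4) in Gfra2-/- endosteal and 595 ± 65.2 (n = 3) in Gfra2-/- central BM. Bmi1 had means of 43.2 ± 12.2, 54.7 ± 45.6, 28.3 ± 17.8 and 37.1 ± 21.5 CPM in the same order, and ranged from 12.6 CPM in Gfra2-/- central C to 115 CPM in WT central D. Gfi1, the repressor, was at 70.7, 0.466, 4.82 and 65.6 CPM in WT endosteal libraries A to D and at no more than 27.2 CPM in any other library. Its WT endosteal mean of 35.4 CPM therefore rested on libraries A and D.

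The first question was how HSCs of endosteal and central BM differ in WT mice. Endosteal against central, the log2 fold change was -0.60 ± 0.36 for Mllt3 (fitted value and its SE, here and below), -0.63 ± 0.48 for Mecom, -0.84 ± 0.64 for Prdm16 and -1.05 ± 0.83 for Sult1a1. It was 1.85 ± 1.34 for Gfi1, while Meis1 was at -0.04 ± 0.30, Hlf at 0.17 ± 0.32, Runx1t1 at -0.25 ± 1.12 and Bmi1 at -0.38 ± 0.72. The sign was negative for 7 of 9 genes with a median of -0.38, against 0.03 over all genes tested. None of the 9 was called at a false discovery rate (FDR) of 10% by edgeR's quasi-likelihood test, nor was any of the 11181 genes (0%), 882 of which had an unadjusted p under 0.05. DESeq2 called 208 genes (1.86%) and again none of the set. Without WT central A the Mllt3 value was -0.25 and the Gfi1 value 3.15, and without WT central B the Prdm16 value was -0.45. The Gfi1 value fell to 1.23 without WT endosteal A. Bmi1 turned to 0.26 without WT central D, and Sult1a1 went to -1.88 without WT endosteal C. Among libraries with more spike-in RNA and in the pair with less, Mllt3 was at -0.80 and -0.11, Prdm16 at -1.26 and 0.05, Bmi1 at 0.14 and -1.12, and Gfi1 at 1.06 and 3.54, with Hlf at 0.17 and -0.09 and Runx1t1 at -0.44 and 0.08, so the sign differed between the classes for Prdm16, Bmi1, Hlf and Runx1t1. Past the quality limits (at least 1500000 reads on genes and at most 20% mitochondrial reads), Runx1t1 turned to 0.20 and Bmi1 was at -1.07.

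No gene of the set had WT compartments that did not overlap, beside 4.27% of genes higher and 2.09% lower in endosteal libraries. In thinned counts Mllt3, 1 of 9, was lower in all endosteal libraries, as were 2.85% of genes.

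The second question was the same contrast in mice labelled Gfra2-/-. Endosteal libraries had less Mllt3, with a log2 fold change of -0.99 ± 0.21, which is a 1.98-fold higher fitted level in central BM. Runx1t1 was at -3.13 ± 0.96, Sult1a1 at -1.76 ± 0.72, Prdm16 at -0.88 ± 0.46, Mecom at -0.60 ± 0.35 and Hlf at -0.48 ± 0.23. Bmi1 (-0.39 ± 0.74) and Meis1 (-0.08 ± 0.18) differed by less than their SE, and Gfi1 (0.54 ± 1.17) was the 1 gene with a positive value, which turned to -0.24 without Gfra2-/- endosteal C. The median of the 9 was -0.60 against 0.03 over all genes.

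By edgeR 0 of 9 and 0 of 13860 genes (0%) were called, 664 of them with an unadjusted p under 0.05. DESeq2 called 2 of the 9, Mllt3 and Runx1t1, and 156 genes in all (1.13%). Since these counts took part in the choice of the genes, nothing is read from that difference. Hlf, Mllt3, Runx1t1 and Sult1a1, 4 of 9, were lower in all endosteal than in all central libraries, as were 3.67% of genes, and 0 of 9 were higher in all, as were 3.67%. In thinned counts 5 of 9 were lower in all, Mecom being added, as were 3.48% of genes. The Mllt3 value was -1.01 among libraries with more spike-in RNA, -0.88 in the single pair with less, and -1.14 without endosteal B and D, which hold the Gfra2 counts and the erythroid and B cell markers. Without those 2 libraries Runx1t1 was at -2.50, Hlf at -0.24, Sult1a1 at -2.25, Prdm16 at -0.67 and Mecom at -0.43. Sult1a1 was at -2.42 among libraries with more spike-in RNA and at -0.61 in the pair with less, and Bmi1 at -0.56 and 0.09.

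**Figure D3:**
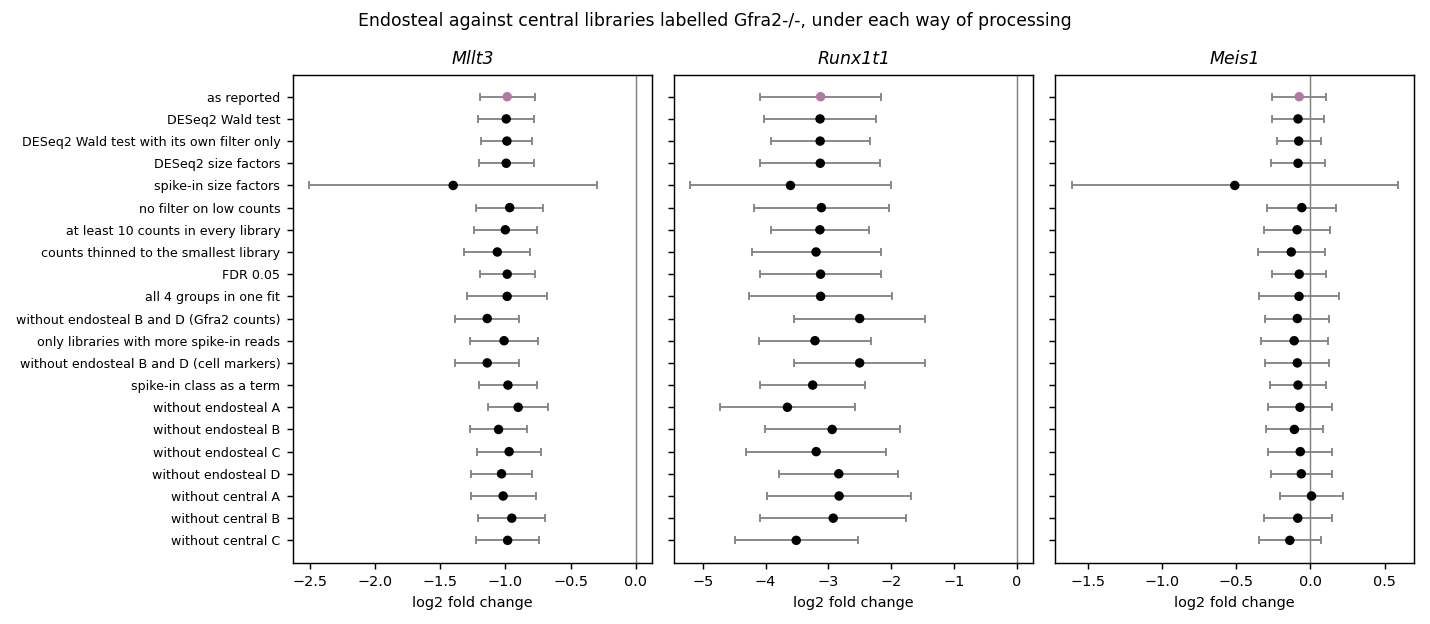
Log2 fold change with its SE (horizontal axes) of Mllt3, Runx1t1 and Meis1, endosteal against central libraries labelled Gfra2-/-, for the reported fit (coloured) and each alternative or omitted library (rows). Mllt3 is negative in every row, between -0.90 and -1.05 when single libraries are omitted, and Meis1 stays near 0 except under spike-in scaling, where the median of all genes is itself at -0.46.

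The third question was the effect of the genotype in each compartment. In central BM the log2 fold change of Gfra2-/- against WT was 0.78 ± 0.35 for Mllt3, 1.23 ± 1.03 for Runx1t1 and 0.47 ± 0.28 for Hlf. Sult1a1 was at 0.29 ± 0.73, Meis1 at 0.08 ± 0.31, Mecom at -0.29 ± 0.51, Prdm16 at -0.31 ± 0.60, Bmi1 at -0.61 ± 0.87 and Gfi1 at -0.98 ± 1.28. There were 5 positive and 4 negative values, with a median of 0.08 against 0.03 over all genes. By edgeR 0 of 9 were called beside 6 of 11772 genes (0.051%), 1028 having an unadjusted p under 0.05, and by DESeq2 0 of 9 beside 382 genes (3.24%).

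Mllt3 was higher in all central Gfra2-/- than in all central WT libraries, 1 of 9 genes, beside 7.99% of all genes, and 0 of 9 were lower in all, beside 4.44%. Its value was 1.12 without WT central A. It was 0.65 among libraries with more spike-in RNA and 1.14 in the pair with less. For Bmi1 these were 0.45 and -3.09, for Runx1t1 1.76 and -0.47, for Sult1a1 -0.02 and 2.37, for Mecom 0.003 and -1.02, for Gfi1 -1.16 and -0.06, and for Meis1 0.12 and -0.05, while Sult1a1 was at -0.07 without WT central D. Bmi1 turned from -0.61 to 0.04 without WT central D, the library with neutrophil and B cell markers, and Gfi1 from -0.98 to 0.31 without WT central A. Mecom turned to 0.13 without WT central A, Prdm16 to 0.08 without WT central B and Meis1 to -0.10 without WT central C. Past the quality limits Bmi1 was at -1.32, Prdm16 at -0.67 and Gfi1 at 0.31. Reads on no gene made up 31.7% to 33.0% of aligned reads in Gfra2-/- central and 29.3% to 31.3% in WT central libraries. The part of this in the differences was not tested.

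In endosteal BM Gfra2-/- against WT gave 0.40 ± 0.25 for Mllt3 and 0.06 ± 0.21 for Meis1, and negative values for the other 7. Among these Gfi1 was at -2.26 ± 1.35, Runx1t1 at -1.64 ± 1.11, Bmi1 at -0.61 ± 0.61 and Sult1a1 at -0.41 ± 0.85, with Prdm16 at -0.33 ± 0.57, Mecom at -0.23 ± 0.35 and Hlf at -0.17 ± 0.30. The median was -0.33 against 0.03 over all genes. By edgeR 0 of 9 and 0 of 12970 genes (0%) were called, 868 with an unadjusted p under 0.05, and by DESeq2 0 of 9 and 136 genes (1.05%). Every gene of the set overlapped between these groups, beside 2.69% of all genes higher and 3.55% lower in Gfra2-/- libraries. Sult1a1 was at -1.33 among libraries with more spike-in RNA and at 2.17 in the pair with less, so its sign differed between those classes of library. Prdm16 was at 0.09 and -1.39 in the same order, Runx1t1 at -1.05 and -3.09, Bmi1 at -0.27 and -1.88, and Mecom at -0.03 and -1.11. Sult1a1 was at 0.42 without WT endosteal C and at -1.04 without Gfra2-/- endosteal D, and Gfi1 at -3.05 without Gfra2-/- endosteal C. Without Gfra2-/- endosteal B and D Sult1a1 was at -0.90, Runx1t1 at -1.02 and Mllt3 at 0.24, and Hlf turned from -0.17 to 0.06.

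The last question was whether the compartment difference depended on genotype. The interaction, the log2 fold change of endosteal against central in Gfra2-/- minus that in WT, was -0.40 ± 0.42 for Mllt3, about its SE. It was -2.90 ± 1.51 for Runx1t1, -0.66 ± 0.41 for Hlf, -0.73 ± 1.20 for Sult1a1 and -1.33 ± 1.82 for Gfi1. Mecom (0.02 ± 0.65), Bmi1 (-0.04 ± 1.04), Meis1 (-0.05 ± 0.36) and Prdm16 (-0.06 ± 0.84) had values close to 0. Bmi1 was at -0.69 without WT central D, among libraries with more spike-in RNA at -0.78, and past the quality limits at 0.66, where Prdm16 was at 0.28. Without WT endosteal C Sult1a1 was at 0.10, and without WT central A Gfi1 was at -2.63. By edgeR 0 of 9 and 0 of 15416 genes (0%) were called, 1074 with an unadjusted p under 0.05, and by DESeq2 0 of 9 and 176 genes (1.14%). Without Gfra2-/- endosteal B and D the interaction was -0.61 for Mllt3, -2.32 for Runx1t1, -0.47 for Hlf and -1.24 for Sult1a1. The compartment contrasts share no library with each other, but each shares a group with a genotype contrast, so these values are not separate evidence.

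**Figure D4:**
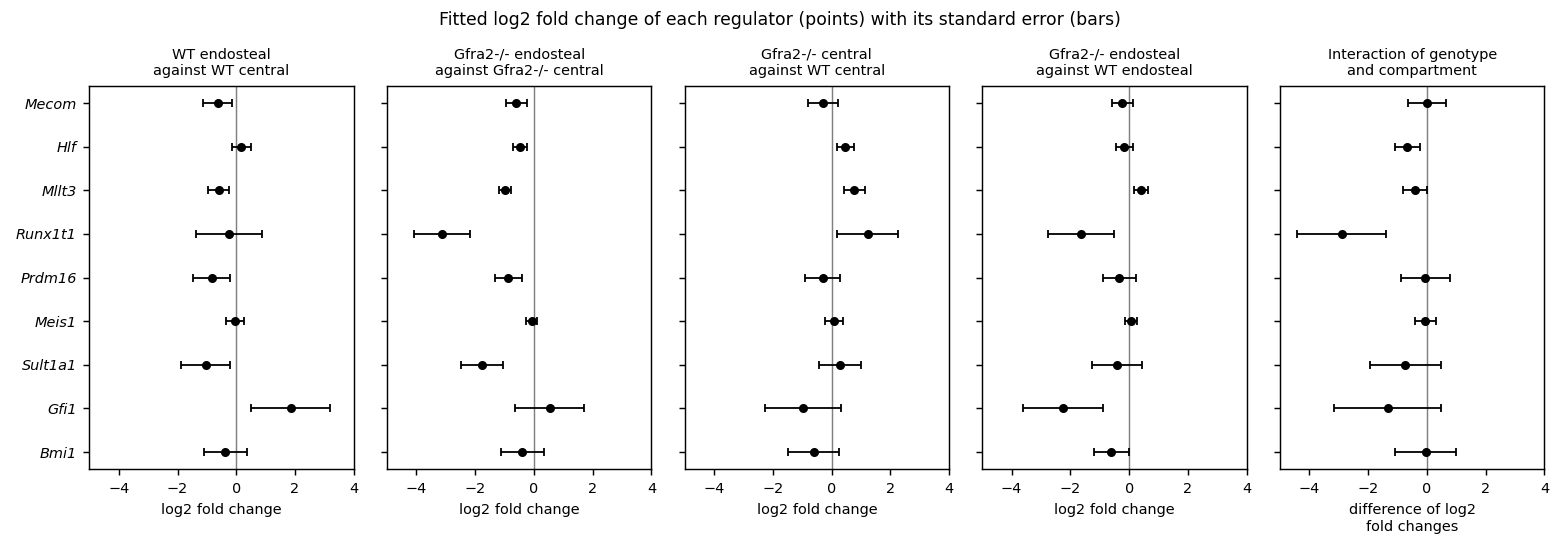
Fitted log2 fold change (point) and SE (bar) of the 9 genes in the 4 comparisons and, at the right, the difference of the endosteal against central values between genotypes. Mllt3 lies at -0.60 and -0.99 in the compartment panels and at 0.78 and 0.40 in the genotype panels, and Gfi1 and Runx1t1 have the widest bars.

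The partners of these proteins were then examined as 79 further genes in 9 lists, drawn up by role. At 10% FDR edgeR called 0 in each of the 5 tests, of 68, 72, 70, 71 and 74 tested in the order above. Unadjusted p-values under 0.05 numbered 5, 4, 5, 5 and 4, and DESeq2 called 1, 0, 2, 1 and 1. Over all genes the shares with such a p were 7.89%, 4.79%, 8.73%, 6.69% and 6.97%, and DESeq2 called 1.86%, 1.13%, 3.24%, 1.05% and 1.14%. The 12 genes of the DOT1L and super elongation complexes that work with Mllt3 had a median log2 fold change of -0.75 in WT endosteal against central BM (10 of 12 negative), -0.26 in the same contrast of Gfra2-/- (8 of 12), -0.32 for Gfra2-/- against WT in central BM and 0.02 in endosteal BM. Over all genes the median was 0.03 in each of these contrasts. In the interaction this list was at 0.25, with 7 of 12 positive, against -0.12 over all genes. Whether these genes moved with Mllt3 was not tested. Aff4, a scaffold of the super elongation complex, was at 80.6, 128, 88.5 and 136 CPM in Gfra2-/- endosteal and 182, 171 and 223 CPM in Gfra2-/- central libraries, a log2 fold change of -0.83 ± 0.30 with an adjusted p of 0.98 by edgeR. Ccnt1, the cyclin of the elongation kinase P-TEFb, was at 400, 242, 123 and 87.0 CPM in WT central and 65.3, 59.6 and 84.8 CPM in Gfra2-/- central libraries, at -1.63 ± 0.55 with an adjusted p of 0.40 by edgeR. The groups did not overlap for either gene, as for 3.67% of all genes lower in Gfra2-/- endosteal and 4.44% lower in Gfra2-/- central BM. Both were named for a small p, which goes with groups that do not overlap, so nothing is read from this.

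Among the Gfi1 corepressors, Kdm1a (LSD1, a histone demethylase) was at 158, 162, 146 and 65.7 CPM in WT central and 26.4, 46.8 and 40.1 CPM in Gfra2-/- central libraries. The log2 fold change was -1.84 ± 0.55 and the adjusted p 0.35 by edgeR. Rcor1, which holds Kdm1a in its complex, was at -1.53 ± 0.56 in Gfra2-/- against WT endosteal libraries, with an adjusted p of 0.74 by edgeR. In that comparison Tal1, of the Runx1t1 list, was at -1.53 ± 0.53 with the same adjusted p, 0.74 by edgeR. Cbfa2t2, a relative of Runx1t1, was at 511 CPM in Gfra2-/- endosteal B and at 83.9 to 165 CPM in the other 3, against 35.6 to 78.3 CPM in Gfra2-/- central BM, which gave 1.86 ± 0.67 with an adjusted p of 0.999 by edgeR.

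None of the 14 subunits of Polycomb repressive complex 1 listed beside Bmi1 was among the genes with the smallest p in any test, and their medians lay between -0.60 and 0.06. For the corepressors and methyltransferases of Mecom and Prdm16 the medians over 7 genes were -0.33 and -0.05 in the compartment contrasts, -0.87 in central and -0.55 in endosteal Gfra2-/- against WT. The PAR bZIP list of Hlf had 2 or 3 genes tested, with none called.

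Of 10 known target genes, Id2, an inhibitor of basic helix-loop-helix factors that Gfi1 represses, had the smallest p in 2 comparisons. It was at 0.244, 2.47, 5.72 and 1.96 CPM in WT endosteal against 40.7, 63.1, 30.8 and 9.10 CPM in WT central libraries, and at 27.6, 22.5, 13.8 and 62.1 CPM in Gfra2-/- endosteal and 6.36, 37.5 and 0.899 CPM in Gfra2-/- central. WT endosteal libraries were thus below all libraries of WT central and of Gfra2-/- endosteal BM, as were 2.09% and 2.69% of all genes in these comparisons, and the choice by p goes with such a separation. The log2 fold changes were -3.78 ± 1.14 (WT compartments, adjusted p = 0.46), 3.59 ± 1.04 (endosteal genotypes, adjusted p = 0.65) and 4.84 ± 1.64 (interaction, adjusted p = 0.54) by edgeR. DESeq2 called Id2 in all 3. Spi1 (PU.1) was at 37.1, 24.6, 5.36 and 22.2 CPM in WT central BM against 40.8 to 173 CPM in WT endosteal and 85.4 to 100 CPM in Gfra2-/- central BM, at 1.86 ± 0.75 (adjusted p = 0.59) and 2.05 ± 0.72 (adjusted p = 0.43) by edgeR. Epas1 was at 10.7, 9.55 and 64.2 CPM in Gfra2-/- central and at 0, 0.0505, 0 and 0 CPM in Gfra2-/- endosteal libraries, where 1 read was counted in all. With an adjusted p of 0.70 by edgeR in that contrast and 0.52 in the interaction, it was not called. In the Sult1a1 list Sult2b1 had the smallest p, with 11.2, 2.40, 1.64 and 7.04 CPM in WT endosteal and 0, 0.311, 0 and 0 CPM in WT central libraries, and an adjusted p of 0.59 by edgeR for the interaction.

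How the regulators varied together was described by Spearman correlation of log2(CPM + 1) over the 15 libraries, which share depth and cell mixture, so no p is given. The median over the 36 pairs was 0.21, or 0.10 with group means removed, and 27 pairs were positive before that removal. Mecom went most closely with Meis1 (0.72) and with Prdm16 (0.66), followed by Mllt3 with Meis1 (0.59) and with Prdm16 (0.55). With group means removed these 4 were 0.76, 0.33, 0.44 and 0.39. Hlf with Gfi1 was the lowest pair, at -0.27. The correlation with reads on genes was between -0.40 (Gfi1) and 0.13 (Meis1), and 0.02 for Mllt3.

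**Figure D5:**
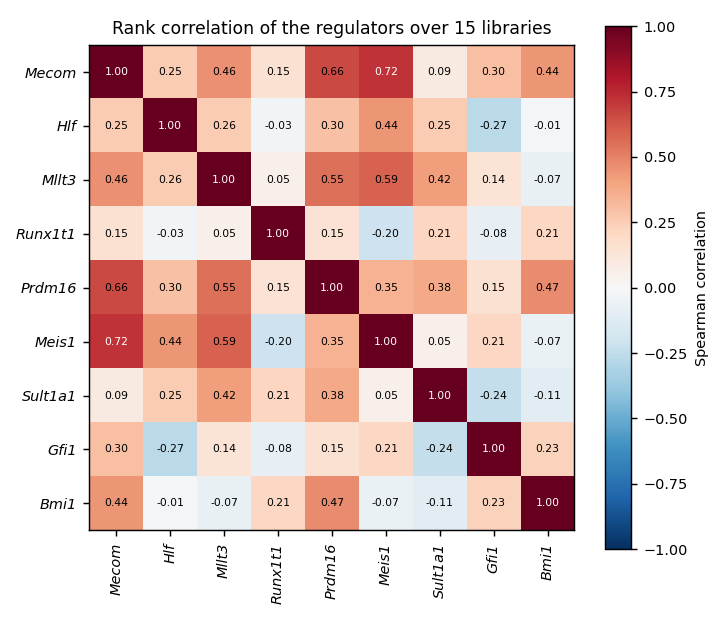
Spearman correlation of log2(CPM + 1) between each pair of the 9 genes over 15 libraries, from -1 (blue) to 1 (red), with the value in each cell. The block of Mecom, Mllt3, Prdm16 and Meis1 is positive throughout, from 0.35 to 0.72, and Gfi1, Runx1t1 and Sult1a1 are mostly pale.

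Among 9561 other genes with at least 10 counts in at least 12 libraries, the 5 most like Mllt3 were Zfp512 (0.87), H2-Aa (0.86), 1810024B03Rik (0.79), Akap8 (0.79) and Shisa5 (0.78). The median over all these genes was 0.00, and 5% exceeded 0.44. H2-Aa, a class II antigen presentation gene, had group means of 26.6 CPM in WT endosteal, 96.9 in WT central, 67.6 in Gfra2-/- endosteal and 116 in Gfra2-/- central libraries, and its correlation with Mllt3 was 0.75 with group means removed. For Zfp512, a zinc finger gene, the means were 36.8, 103, 156 and 170 CPM in the same order and the correlation without group means was 0.45. Akap8 (0.31) and 1810024B03Rik (0.43) also lost much of their likeness once group means were removed, whereas Shisa5 kept 0.62.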

How the data were processed

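Libraries were made with Smart-seq2 from sorted pools of 30 cells. The deposited table holds raw counts per gene: the authors aligned reads with GSNAP (mm10) and counted them with HTSeq (0.5.3p3), per the labels and the study's methods. It has 92 spike-in rows and 5 summary rows, kept out of library sizes and tests. Of its columns, 15 were assigned to groups and 1 was not assigned and not used. Genes were tested with edgeR 4.0.16 in R 4.3.3 (filterByExpr, TMM, quasi-likelihood test, Benjamini-Hochberg over all genes tested, 10% FDR, only the groups compared, and all 4 for the interaction). DESeq2 1.42.0, other scalings, filters and libraries were alternatives. SEs are the fold change divided by the root of F. The fits were also tested on simulated data, but no value of that is given here, so no result rests on it. Levels per length used the union of exons (GENCODE M21).

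The genes and lists were chosen with earlier results of these data known. Named were all 9 genes, in each test the 3 partner genes with the smallest p (none passed 10% FDR), the 5 genes most like Mllt3, the most abundant gene of each marker list, and markers at 0, except a few genes that are not reported here. Other markers, DESeq2 calls and list medians were named after their values were seen.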

Additional observations from a re-analysis of the deposited data

Results flagged for a closer look

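In each of the 3 groups of 4 libraries, the highest and lowest library of each gene was compared with its nearest neighbour (Dixon's test). Of 27 such groups 4 stood out, where chance gives about 1 in 20. The genes share libraries and were chosen with these counts in view, so no excess is read from this. Mllt3 was at 457 CPM in WT central A, against 240 CPM in the next library. Gfi1 was at 27.2 CPM in the same library, against 4.72 CPM in the next. Meis1 was at 731 CPM in WT endosteal A, with the next at 502 CPM. Mecom was lowest in Gfra2-/- endosteal D, at 75.3 CPM against 153 CPM, the library with the most B cell marker RNA. Gfra2-/- central, with 3 libraries, could not be examined in this way.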

How the results depend on the processing

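No paired analysis was possible because the columns of the table carry no replicate numbers. None of the 9 genes was called by edgeR under any scaling, filter or omitted library tried. DESeq2 called 2 (Mllt3 and Runx1t1) for Gfra2-/- endosteal against central, with the same filter and also 2 with only its own filter. Over all genes, edgeR called 0, 0, 6, 0 and 0 in the 5 tests in the order of the report, DESeq2 208, 156, 382, 136 and 176, and with its own filter 606, 395, 725, 534 and 240. With no filter edgeR called 58, 0, 134, 0 and 0, and with at least 10 counts in every library 11, 0, 29, 0 and 0. In thinned counts these were 4, 0, 14, 0 and 0, and with all groups in one fit 22, 0, 4 and 1. At 5% FDR no gene was called, nor in the 3 tests refitted past the quality limits (1500000 reads on genes and 20% mitochondrial reads). Leaving out 1 library gave 0 to 6 calls in the first test, 6 of them without WT endosteal A, and 0 to 8 in the third, with 8 without Gfra2-/- central C. Libraries with more spike-in RNA gave 0, 0, 1, 0 and 0, and omitting WT central D and Gfra2-/- endosteal B and D gave 1, 0, 0, 0 and 0. With the class of spike-in share as a term edgeR called 1, 0, 7, 0 and 0 genes, none of the set, and no value of the set changed sign. Sult1a1 then went from 0.29 to 0.67 in central BM. Of the partner genes DESeq2 called 1 (Id2) and, with its own filter, 2 (Sult2b1 and Id2) in WT compartments, 2 (Ccnt1 and Kdm1a) or 2 (Kdm1a and Spi1) in central BM, and 1 (Id2) in endosteal BM and in the interaction by either filter. Spike-in scaling with edgeR called 1, Epas1, in the Gfra2-/- compartments and 1, Epas1, in the interaction. These partner counts, DESeq2 with only its own filter, the fits with the spike-in term and those without WT central D and Gfra2-/- endosteal B and D were added after seeing the data.

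Spike-in scaling moved the median of all genes to 1.58, -0.46, 1.75, -0.28 and -2.18 and called 0, 15, 2, 6 and 193 genes. All 9 genes of the set then had positive values in the WT compartments, with a median of 1.18. For Gfra2-/- against WT in central BM 8 were then positive and 1 negative, with a median of 1.66. In the interaction all 9 were negative, with a median of -2.55. Relative to the median of all genes Mllt3 was at -0.40, -0.94, 0.93, 0.39 and -0.40. Some other genes moved more by this measure. For Gfra2-/- against WT, Bmi1 was at -2.12 and Sult1a1 at 1.29 in central BM. In endosteal BM Sult1a1 was at 0.65 and Runx1t1 at -2.69. The Meis1 level per length became 89.5 CPM per kb. The cause was not tested. Of the 45 log2 fold changes, 34 moved by over 1 SE under spike-in scaling and 0 under DESeq2. Of 405 values with 1 library left out, 3 moved by over 1 SE and 52 changed sign. Low counts limit Gfi1 and Runx1t1, and the depth of WT central libraries limits both comparisons and the interaction, which use them.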
